A study of Mus musculus with 8 samples.

Results

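Keratin transcripts were measured in mouse mammary tumours on 8 Agilent expression arrays with 2 colours each. The keratins were taken by name: every non-control probe whose gene name begins with Krt and a number, or with the older form of a number, a hyphen and a number, with the keratin-associated proteins (Krtap) left out. This gave 50 of 41174 probes, for 42 of 28785 gene names. The 5 floxed samples were single tumours of Stat3flx/flx/MMTV-NIC virgin females, and the 3 wild-type samples were pools of 5 tumours each from Stat3wt/wt/MMTV-NIC virgin females. All were taken 6 weeks post palpation. NIC joins activated Neu (ErbB2) and Cre recombinase under the MMTV promoter, which is active in mammary epithelium. Both groups therefore carry the oncogene and Cre, and stromal, immune and other cells in a floxed tumour are not expected to lose Stat3. Each array set tumour RNA (Cy5) against the Stratagene universal mouse reference (Cy3). The comparison asks how transcripts differ between ErbB2-driven tumours with and without the floxed Stat3 alleles.

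Keratins are the intermediate filament proteins of epithelial cells. Each filament pairs a type I with a type II keratin, and the pair depends on the cell: Krt8 with Krt18 in simple epithelia such as the luminal layer of the mammary duct, Krt5 with Krt14 in basal cells such as mammary myoepithelium and the deepest layer of skin, Krt1 with Krt10 in cornifying epidermis, and further pairs in the hair shaft and the sheath around its root. Pathologists use them to tell luminal from basal differentiation in breast tumours.

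In build mm7 the 42 genes lay in the keratin clusters of mouse chromosomes: 24 genes (28 probes) within 1032 kb of chromosome 11, between positions 99343022 and 100374997, and 18 genes (22 probes) within 684 kb of chromosome 15, between 101334310 and 102018126. These are the known type I and type II keratin clusters, and Krt18, a type I gene, lies beside Krt8 in the second. Exon and UTR positions of the probes were not analysed here, but 8 of the 50 probes are spread over more than 200 bases of the genome. Related genes can cross-hybridise. The probes were compared only with each other and not with the transcripts of other keratin genes, so cross-hybridisation was not tested. Over 1217 pairs of probes for different keratin genes, the longest shared run of bases had a median of 6 and reached at most 13 of 60 bases. The windows below, of 30 bases each, are from the probes on which the results turn, with the longest run shared with a probe of another keratin gene in capitals.
Krt7 first probe, chr15:101413898-101413957, plus strand: taataaagggcctcTCTGAGAGAgctgcat
Krt7 second probe, chr15:101409444-101409503, plus strand: cagcatcgCAGAGGCTGAggaacaagggga
Krt8 first probe, chr15:101983072-101983131, minus strand: TGGTGTCCGAGtcttctgatgtcgtgtcca
Krt18, chr15:102018067-102018126, plus strand: atggcagagTGGTGTCCGAGactaatgaca
Krt19, chr11:100250117-100250176, minus strand: agctgtcacaGATCCAGAGcgtgatcagcg
Krt5, chr15:101693240-101693299, minus strand: tacccacctaAATTCTGTCctggttctgac
Krt14, chr11:100312408-100313013, minus strand: ccaccaaccgCCAGATCCGcaccaaggtca
Krt13 first probe, chr11:100230196-100230255, minus strand: aatgaccgcctggccaGCTACCTGGataag
Krt13 second probe, chr11:100228435-100228673, minus strand: accacgaaGAGGAGATGAAGGaattcagca
Krt25, chr11:99425592-99426300, minus strand: cctcatagGAGGAGATGAAGGggcctgtaa
Krt27, chr11:99454883-99455553, minus strand: gacccggaaaTCAGACAAAagattcgccta
Krt33a, chr11:100120303-100120362, minus strand: tggaGGATCTGGttggcaagcatgtgaaac
The run shared by Krt8 and Krt18 spans 11 bases and that shared by Krt13 and Krt25 spans 13, the longest of all. No pair of probes for different keratin genes shared 15 or more bases.

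Values are log2 ratios of tumour over reference, and a probe counts as measured where 3 or more of the 8 arrays had a tumour-channel signal well above background. The median tumour-channel intensity per array was 642 to 891 over background medians of 47 to 58, and log2 ratios correlated at r = 0.848 to 0.964 between arrays, across probes. The number of arrays limits the precision. Because the dyes were never swapped, a ratio to the reference holds any dye bias of its probe and is a description, while the bias cancels between groups where it is equal on all arrays. The p-values thus measure only how these samples vary, and a pool averages over animals that a single tumour does not. Stat3 itself averaged -1.29 ± 0.14 (SD, n = 5) over the floxed tumours against 0.75 ± 0.58 (SD, n = 3) over the pools, with no overlap (exact permutation p = 0.0179, the smallest possible for this design; limma adjusted p = 0.110). The sources used here do not give the deleted part of the gene, so its probe does not check the labels by itself. Of 20 luminal epithelial markers, 19 were measured, and Epcam and Cldn3, the brightest, had ratios of 3.44 to 4.53 and 4.98 to 5.54. The median over the 19 of each gene's mean ratio was 4.12. Some were low, among them Elf3 at -2.19 to -0.31 and Foxa1 at -1.88 to 0.76. The progesterone receptor gene Pgr was not well above background in any sample.

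No keratin passed the threshold, an adjusted p under 0.05 in limma over all genes. Of the 42 keratin genes, 25 were measured, and their limma adjusted p-values ran from 0.942 to 0.992. Among all genes, 1 of 21555 passed, or 0.00464%. At an unadjusted limma p under 0.05 there was 1 keratin, Krt7, against 1072 genes or 4.97% of all genes (3.37% when only lower means are counted), so the keratin count of 1 in 25 is near the background. The groups overlapped for all 25 keratins, while 3.15% of all genes had groups that did not overlap. The mean was lower in floxed tumours for 17 keratins and higher for 8, with a median log2 difference of -0.09 against -0.01 over all genes, 52.8% of which were lower. By class, the median differences were -0.13 for the 5 simple keratins, -0.76 for the 4 basal, -0.21 for the 3 stress-induced, -0.03 for the 6 epidermal and mucosal and 0.04 for the 6 hair and root sheath keratins measured.

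**Figure D1:**
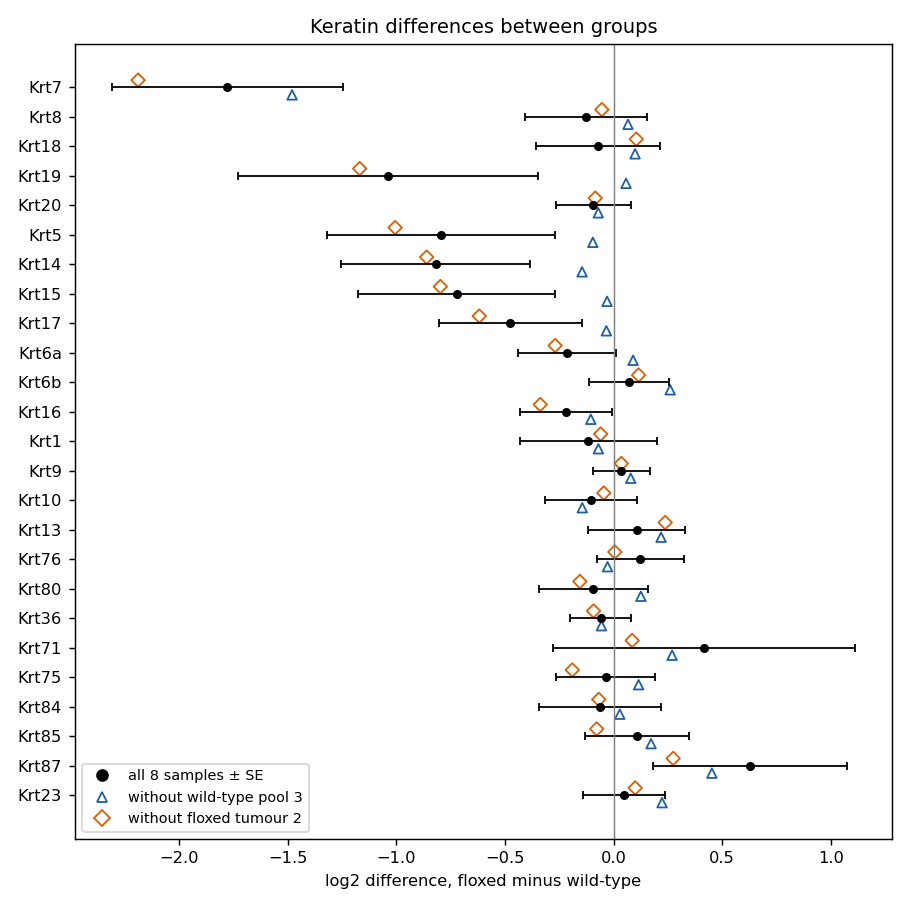
Log2 difference of floxed tumours minus wild-type pools for the 25 measured keratin genes, with the limma standard error (black), without wild-type pool 3 (blue triangles) and without floxed tumour 2 (orange diamonds). Krt7 has the lowest value at -1.78, and Krt5, Krt14, Krt15, Krt17 and Krt19 move close to 0 without pool 3.

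Among the simple keratins, Krt7, a type II keratin of ductal and glandular epithelium, had the largest difference in size of all measured keratins. Its ratios in floxed tumours 1 to 5 were -0.66, 1.75, -0.05, -0.70 and 0.21, and those in wild-type pools 1 to 3 were 1.68, 1.498 and 2.49. Floxed tumours 1, 3, 4 and 5 lay below all pools, and floxed tumour 2 lay between the pools. The means were 0.11 ± 1.00 (SD, n = 5) and 1.89 ± 0.53 (SD, n = 3), a 3.43-fold lower level in floxed tumours with a log2 difference of -1.78 (SE 0.53). Its unadjusted limma p was 0.00861 and its limma adjusted p 0.942, and the exact permutation test gave p = 0.0893, so the difference did not pass. The second Krt7 probe, in another stretch of the gene, read -0.46, 2.16, 0.28, -0.47 and 0.58 in the floxed tumours and 1.94, 1.85 and 3.06 in the pools, in the same order of high and low samples. It differed by -1.86 (SE 0.58). Within the slides of pools 1, 2 and 3 the Krt7 difference was -1.92, -2.16 and -1.64. Leaving out 1 sample at a time gave -2.19 (without floxed tumour 2, limma adjusted p = 0.223) to -1.48 (without pool 3).

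Krt8 and Krt18, the filament pair of luminal cells, were high against the reference in every sample. Krt8 read 2.61, 1.90, 2.70, 1.75 and 2.00 in the floxed tumours and 1.86, 2.39 and 2.71 in the pools. Krt18 read 3.99, 2.86, 3.95, 3.43 and 3.63 and then 3.21, 3.73 and 3.99. The groups covered nearly the same range for both genes, with differences of -0.13 (SE 0.28) and -0.07 (SE 0.28), smaller than the spread within each group. The signs are not settled, since with the tumour channel alone the differences were 0.05 and 0.01. The other Krt8 probe differed by -0.23 (SE 0.27). Krt20, a keratin of intestinal and urothelial lining, lay between -4.89 and -4.27 in the floxed tumours and between -4.51 and -4.44 in the pools, far below the reference and with a difference of -0.09 (SE 0.17).

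Krt19, a type I keratin with a very short tail that is found in luminal and progenitor-rich epithelia, was set apart by a single sample. The floxed tumours read -3.33, -3.07, -3.77, -3.92 and -3.81, pools 1 and 2 read -3.52 and -3.76, and pool 3 read -0.34. Pool 3 thus exceeded the next sample by 2.72 log2 units, and the other pools lay within the range of the floxed tumours. The difference of -1.04 (SE 0.69) became 0.06 without pool 3.

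**Figure D2:**
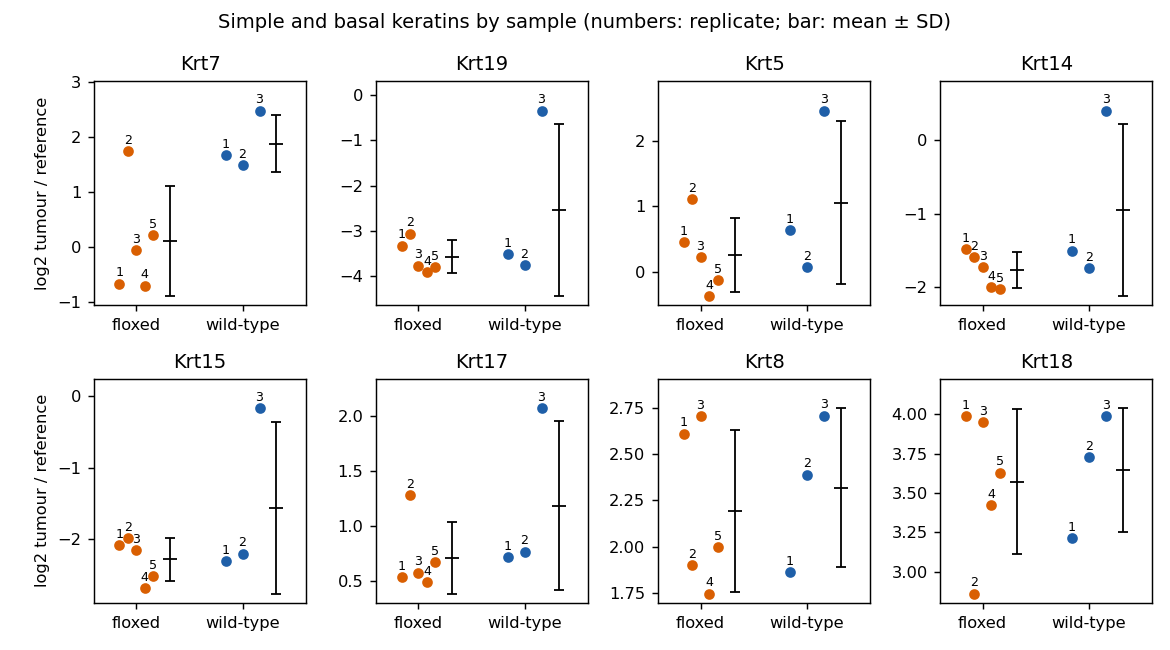
Log2 ratio of tumour over reference for 4 simple and 4 basal keratins in each floxed tumour (orange) and wild-type pool (blue), numbered by replicate, with the group mean ± SD. Krt7 is low in all floxed tumours but the second, Krt19 and the basal keratins are highest in pool 3, and Krt8 and Krt18 overlap over nearly their whole range.

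The 4 basal keratins shared that pattern. Krt5, the type II keratin of basal cells, read 0.46, 1.11, 0.23, -0.36 and -0.12 in the floxed tumours and 0.63, 0.08 and 2.45 in the pools. Krt14, its type I partner, read -1.48, -1.60, -1.73, -2.002 and -2.02 and then -1.50, -1.74 and 0.40. Both were highest in pool 3, by 1.35 and 1.88 log2 units over the next sample, while pools 1 and 2 lay among the floxed tumours. Krt15, a basal keratin also known from hair follicle stem cells, read -2.08, -1.98, -2.15, -2.69 and -2.51 and then -2.30, -2.20 and -0.17. Krt17, a basal and wound-associated keratin, read 0.53, 1.28, 0.57, 0.49 and 0.67 and then 0.72, 0.76 and 2.07. Again pool 3 was the highest sample, and for Krt17 floxed tumour 2 was the next.

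The floxed mean was lower for all 4 basal genes, by -0.79 (SE 0.52) for Krt5, -0.82 (SE 0.44) for Krt14, -0.72 (SE 0.45) for Krt15 and -0.48 (SE 0.33) for Krt17 on the log2 scale, and none passed (limma adjusted p = 0.942 for each). Without pool 3 the same differences were -0.10, -0.15, -0.03 and -0.03, and their median went from -0.76 to -0.06. Within the slides the median was -0.40 beside pool 1, 0.19 beside pool 2 and -1.84 beside pool 3. The summed tumour-channel level of the 4 genes was 9870 in pool 3, 2833 and 2965 in the other pools and 2126 to 3772 in the floxed tumours. In bulk tissue, fewer cells of a type and less RNA per cell cannot be told apart.

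Pool 3 was the highest of the 8 samples for 10 of the 25 keratins (40.0%), against 24.4% of 21452 genes. It was highest by more than 1 log2 unit for 4 keratins (16%), namely Krt5, Krt14, Krt15 and Krt19, against 1.31% of all genes. That margin was chosen after the values were seen and has no test. Among the basal and myoepithelial markers, 14 of 15 were measured and 3 were highest in pool 3. One of these was Trp63, the transcription factor of basal epithelial cells, at 2.07 against -1.93 to -0.53 elsewhere, and Oxtr, the oxytocin receptor of myoepithelium, was at 2.50 against -0.19 to 1.10. Trp63 was well above background in 3 floxed tumours and 3 pools, and Oxtr in 2 of each. The contractile genes differed among themselves. Smooth muscle actin Acta2, the brightest marker, was lowest in pool 3 at -0.96 against 0.10 to 0.92, and Actg2 was also lowest there at -2.06. Mylk, the myosin light chain kinase, was highest there at 0.47 against -1.26 to -0.01, and Cnn1 and Myl9 in pool 3 lay within the range of the other samples. The summed level of the basal and myoepithelial markers was 189358 to 217101 in the pools, with pool 3 the lowest, and 199912 to 272085 in the floxed tumours. It is weighted to the brightest, Acta2 and Sparc, at mean tumour-channel log2 levels of 16.3 and 15.8, against 8.4 for Trp63 and 7.6 for Oxtr. Sparc in pool 3, at -1.46, lay within the range of the other samples. The markers' median deviation from each gene's own median was 0.15 in pool 3 and -0.29 to 0.40 elsewhere. The luminal transcription factor gene Foxa1 was highest in pool 3 as well, at 0.76 against -1.88 to -1.02, as were 9 of 19 measured luminal markers and 7 of 17 epidermal keratinocyte markers. The summed level of the epidermal markers was 60404 to 71066 in the floxed tumours and 77189 to 90442 in the pools. These sums have no test and are weighted to the brightest markers, Sfn and Sbsn (mean tumour-channel log2 levels of 15.6 and 13.0). Sfn differed by -0.08 (SE 0.15) and Sbsn by -0.49 (SE 0.24). Of the 17, 12 had a lower and 5 a higher mean in floxed tumours, and none passed. Flg, Flg2, Ivl and Casp14 were not well above background in any sample. The part of any of these cells in the keratin values was not tested.

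The stress-induced keratins Krt6a, Krt6b and Krt16 are known from wounded and hyperproliferative epidermis. Krt6a read -0.52, -0.12, -0.41, -0.30 and -0.35 in the floxed tumours and -0.51, -0.35 and 0.48 in the pools. It was well above background in all 5 floxed tumours and in 1 pool, and pool 3 was again the highest. Krt6b read 0.62, 0.41, 0.41, 0.67 and 0.83 and then 0.40, 0.26 and 0.90. Krt16, the type I partner of Krt6, read 0.12, 0.78, 0.14, 0.38 and 0.11 and then 0.67, 0.15 and 0.76. For both the groups overlapped throughout. The differences were -0.21 (SE 0.23), 0.07 (SE 0.18) and -0.22 (SE 0.21). Without pool 3 the Krt6a difference was 0.09.

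**Figure D3:**
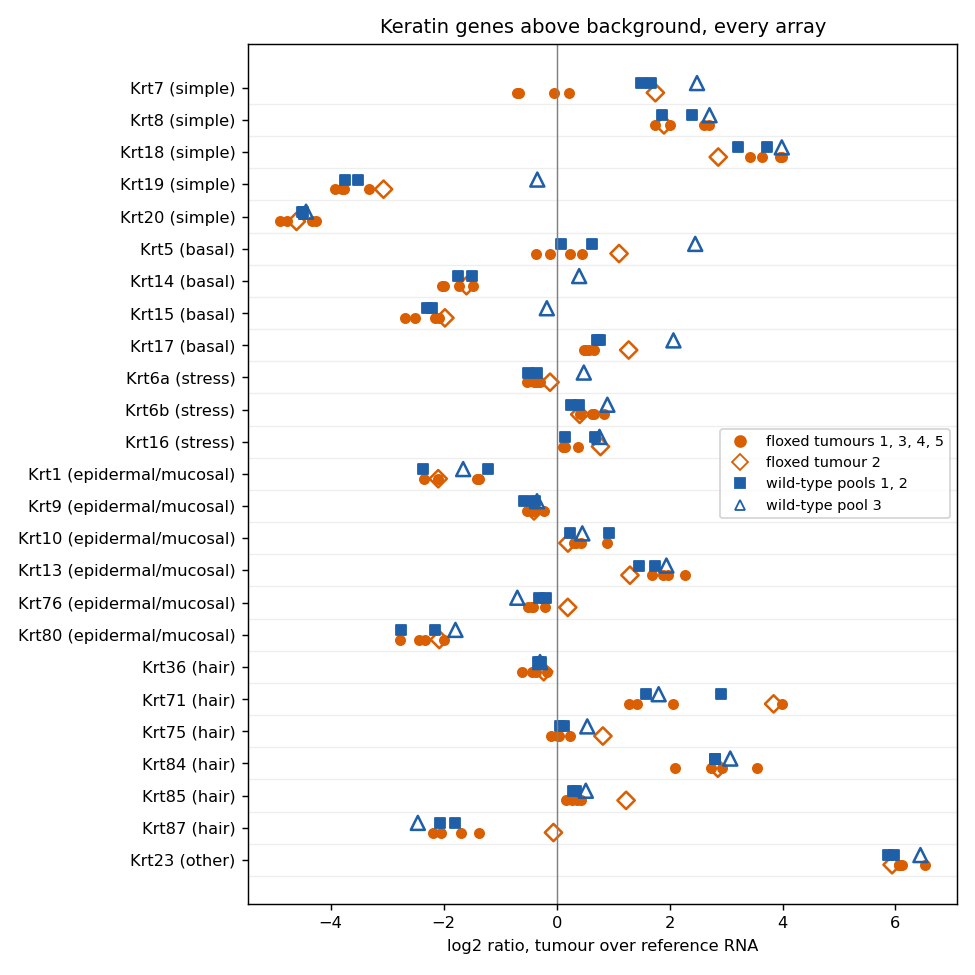
Log2 ratio of tumour over reference on all 8 arrays for the 25 measured keratin genes, by class: floxed tumours in orange with tumour 2 as a diamond, wild-type pools in blue with pool 3 as a triangle. Pool 3 stands to the right for Krt19, Krt5, Krt14, Krt15 and Krt17, and floxed tumour 2 for Krt85 and Krt87.

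Of the 10 epidermal and mucosal keratins on the array, 6 were measured, 3 lower and 3 higher in mean in floxed tumours. Krt76, a keratin of oral and palate epithelium, differed by 0.12 (SE 0.20), and it was well above background in only 2 floxed tumours and 1 pool. Krt10, the type I keratin of cornifying epidermis, read 0.35, 0.20, 0.43, 0.89 and 0.30 in the floxed tumours and 0.92, 0.23 and 0.45 in the pools. Floxed tumour 4 and pool 1, which lay on the same slide, were its highest samples, and the difference was -0.10 (SE 0.21). Its partner Krt1 read -2.10, -2.10, -1.37, -2.35 and -1.41 and then -2.37, -1.22 and -1.66, with a difference of -0.12 (SE 0.32). On this first probe Krt1 was lowest in floxed tumour 4 and pool 1, where Krt10 was highest. The second probe named Krt1 was instead highest in floxed tumour 4, at 1.39, and read 0.98 in pool 1. Krt80, a keratin of differentiating epithelia, lay between -2.78 and -2.001 in the floxed tumours and between -2.75 and -1.79 in the pools and differed by -0.09 (SE 0.25). Krt9, of palm and sole skin, stayed within -0.58 and -0.23 on all arrays. The 4 that were not measured were Krt2, Krt4, Krt12 and Krt78.

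For Krt13, a keratin of mucosal squamous epithelium, the probes disagreed. The first read 2.28, 1.30, 1.98, 1.69 and 1.88 in the floxed tumours and 1.46, 1.75 and 1.94 in the pools, all above the reference. The second lay between -3.30 and -2.81 on the same arrays, all below the reference. Between groups they differed by 0.11 (SE 0.23) and 0.04 (SE 0.17), so the probes diverge in the ratio to the reference and not in the comparison of genotypes. The probes named Krt1 also stood on opposite sides: the first lay between -2.37 and -1.22 and the second, on the opposite genomic strand, between 0.55 and 1.39. Both carry the older name Krt2-1 in the files. The first was assigned to Krt1 by its accession and the second only through a synonym. The second Krt10 probe read -1.78 in floxed tumour 3 and 0.06 to 0.42 in the other 7 samples, whereas the first probe read 0.43 in that tumour. Which transcripts these probes bind was not tested.

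Hair and root sheath keratins gave the widest contrast between single tumours. Of 17 genes, 11 were not measured by the filter above, and all 11 were well above background in floxed tumour 2 and in at most 1 other sample. This held for 64.7% of the 17 genes and for 2.03% of all probes, a description made after the values were seen. Krt27, a type I keratin of the inner root sheath, read 2.61 in floxed tumour 2 and was not well above background in any other sample. In the tumour channel its level there was at least 7.29-fold above that of every other sample, taking the lowest signal well above background as the floor. Krt25, another inner root sheath keratin, read 2.73 there and was at least 4.76-fold above the others.

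Keratins of the hair shaft followed. Krt33a read 2.56 in floxed tumour 2, at least 6.03-fold above the others, and Krt34 read 2.16, at least 3.16-fold above. Both were otherwise not well above background, except Krt34 in floxed tumour 1. Krt28 (1.54), Krt35 (1.32), Krt33b (1.21), Krt31 (1.17), Krt26 (0.71), Krt82 (0.42) and Krt32 (0.26) were likewise highest in floxed tumour 2, with lower bounds from 1.04-fold for Krt82 to 2.15-fold for Krt31. In the pools only Krt28 was well above background, in pool 1.

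**Figure D4:**
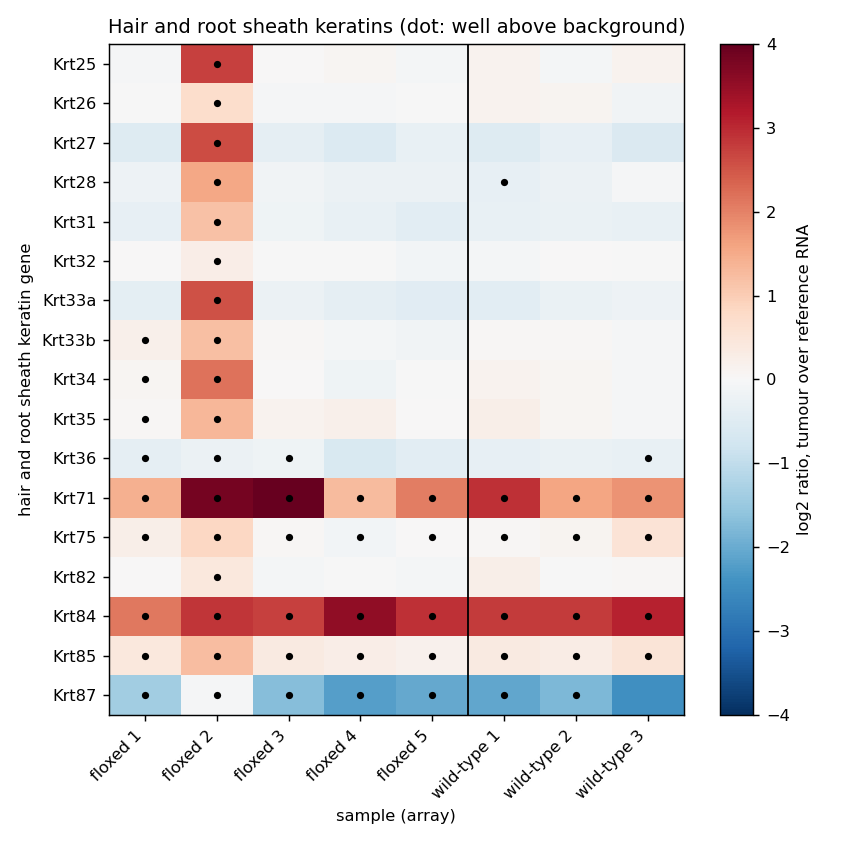
Log2 ratio of tumour over reference (colour) for the 17 hair and root sheath keratin genes in each sample, with a dot where the tumour-channel signal was well above background. The column of floxed tumour 2 holds a dot for all 17 genes, while Krt71, Krt75, Krt84 and Krt85 have one in every sample.

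The 6 hair and root sheath keratins that were measured overlapped between the groups. Krt71, a type II inner root sheath keratin, read 1.42, 3.84, 3.996, 1.27 and 2.06 in the floxed tumours and 2.91, 1.59 and 1.81 in the pools. Floxed tumours 2 and 3 were far above the rest, and the difference was 0.42 (SE 0.70), or 0.09 without floxed tumour 2. Krt87, a hair shaft keratin, read -1.38, -0.06, -1.70, -2.19 and -2.05 and then -2.06, -1.79 and -2.46, the last not well above background. Floxed tumour 2 exceeded the next sample by 1.33 log2 units, and the difference of 0.63 (SE 0.45) became 0.27 without it and 1.28 with the scanner software's processed signals. Krt85, a type II hair shaft keratin, read 1.23 in floxed tumour 2 and 0.16 to 0.52 elsewhere, with a difference of 0.11 (SE 0.24) that became -0.08 without that tumour. Krt84, a keratin of hair and tongue papillae, lay between 2.09 and 3.55 in all samples and differed by -0.06 (SE 0.28). Krt75 and Krt36 differed by -0.04 (SE 0.23) and -0.06 (SE 0.14).

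Floxed tumour 2 was the highest of the 8 samples for 5 of the 25 measured keratins (20%), against 14.7% of 21452 genes. The keratin-associated proteins, which embed the hair keratins and were left out of the keratin set by name, were high in the same tumour. Of 34 Krtap probes, 19 (55.9%) were well above background in floxed tumour 2 and at most 1 other sample. One Krtap19-1 probe, the highest of the 34 in that tumour, read 3.73 there and -0.05 to 0.29 in the other samples. The other Krtap19-1 probe, well above background on all 8 arrays, read 0.63 there and 0.70 in floxed tumour 1. Of the hair follicle markers, 10 of 14 were measured and 3 were highest in floxed tumour 2. Tchh, which encodes trichohyalin of the inner root sheath, read 3.36 there against -0.44 to 2.43, and S100a3 read -0.47 against -2.03 to -1.49. Padi1, the brightest measured marker, read 1.05 there against 0.06 to 0.94. Sox21, the next brightest, read -1.27 there, within the -1.77 to -1.12 of the other samples. The summed level of the hair follicle markers was 7142 to 22539 in the floxed tumours, highest in floxed tumour 3, and 8049 to 9409 in the pools. In floxed tumour 3 Lhx2 read 2.19, against -3.70 to -1.26 elsewhere. Each marker was also set against its own median over the 8 samples. The median of these deviations was highest in floxed tumour 2, at 0.18, against 0.09 in floxed tumour 3. The defining transcription factor gene Foxn1 and the hair desmoglein gene Dsg4 were not well above background in any sample.

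Among epidermal markers, Tgm3, a transglutaminase of the hair and epidermis, was at 2.40 in floxed tumour 2 against -0.01 to 0.30 elsewhere, and it was picked after its value was seen. Of the 17 measured epidermal markers 5 were highest in that tumour, and their summed level there, 60404, was the lowest of the 8 samples. Sfn, the brightest of the 17, was lowest there as well, at -0.27 against -0.23 to 0.13 elsewhere. All 9 fibroblast markers were highest in that tumour. Their summed level was 477344 there, 167438 to 246122 in the other floxed tumours and 180051 to 249266 in the pools. Col1a1, the main chain of type I collagen, read 1.55 against -2.97 to -1.16. Of the 7 measured sebaceous gland markers, only Soat1 was highest in floxed tumour 2, at -1.57 against -2.92 to -2.29, and Scd3 was lowest there at -0.30. Soat1 is the brightest of them, and their summed level was 13108 there against 7048 to 9620 elsewhere. The part of skin, follicle or stroma in the keratin values of floxed tumour 2 was not tested.

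Krt23, a type I keratin of glandular epithelia, was 1 of 3 keratins outside these classes and the only one of them measured. It read 6.53, 5.94, 6.06, 6.11 and 6.07 in the floxed tumours and 5.87, 5.97 and 6.44 in the pools, far above the reference in every sample. The groups overlapped, with a difference of 0.05 (SE 0.19). Krt42 and Krt222 were not well above background in any sample.

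Keratins of a pair were compared across the 8 samples for the 4 type I and type II partners of which both were measured. Krt8 and Krt18 gave Pearson r = 0.848 (exact permutation p = 0.00848, Benjamini-Hochberg adjusted over the 4 pairs 0.0170) and Spearman rho = 0.833 (exact p = 0.0154, adjusted 0.0308). Without floxed tumour 3 and pool 3, the samples farthest from the Krt8 median, r was 0.771. The relation did not pass without floxed tumour 1 (exact adjusted p = 0.0504), floxed tumour 3 (0.050), pool 2 (0.0667) or pool 3 (0.0548), with r between 0.819 and 0.845. With the tumour channel alone r was 0.719 (exact adjusted p = 0.0878). Floxed tumour 2 was the lowest sample for Krt18 and not for Krt8. Krt5 and Krt14 gave r = 0.938 (exact permutation p = 0.00139, adjusted 0.00556) and rho = 0.881 (exact p = 0.00724, adjusted 0.0290), and r = 0.949 without floxed tumour 2 and pool 3. Pool 3 lies far from the other samples in this pair. Without it alone r was 0.813 and the exact adjusted p was 0.0548.

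Krt6a and Krt16 gave r = 0.600 (exact permutation p = 0.0672, adjusted 0.0864) and rho = 0.643 (exact p = 0.0962, adjusted 0.128), and r = -0.283 without floxed tumour 2 and pool 3, so that relation rests on those samples. On the first probe of each, Krt1 and Krt10 ran in opposite directions, with r = -0.655 (exact permutation p = 0.0864, adjusted 0.0864). Their rho was -0.595 (exact p = 0.132, adjusted 0.132), and r was -0.638 without floxed tumour 3 and pool 2. Neither of these pairs passed. The second Krt1 probe, highest in floxed tumour 4, was not compared in this way. The slides hold 2 or 3 samples each, too few for an r within a slide. With each slide's mean removed, a fit chosen after seeing the data, r was 0.962 for Krt8 and Krt18, 0.926 for Krt5 and Krt14, 0.456 for Krt6a and Krt16 and -0.571 for Krt1 and Krt10. Permuting within slides allows 72 arrangements, with a smallest possible p of 0.0139 before adjustment. A single pair could therefore not pass by itself after adjustment over the 4 pairs. The exact permutation p so adjusted was 0.0833, 0.0833, 0.597 and 0.333. No pair passed, which does not show a weaker relation.

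**Figure D5:**
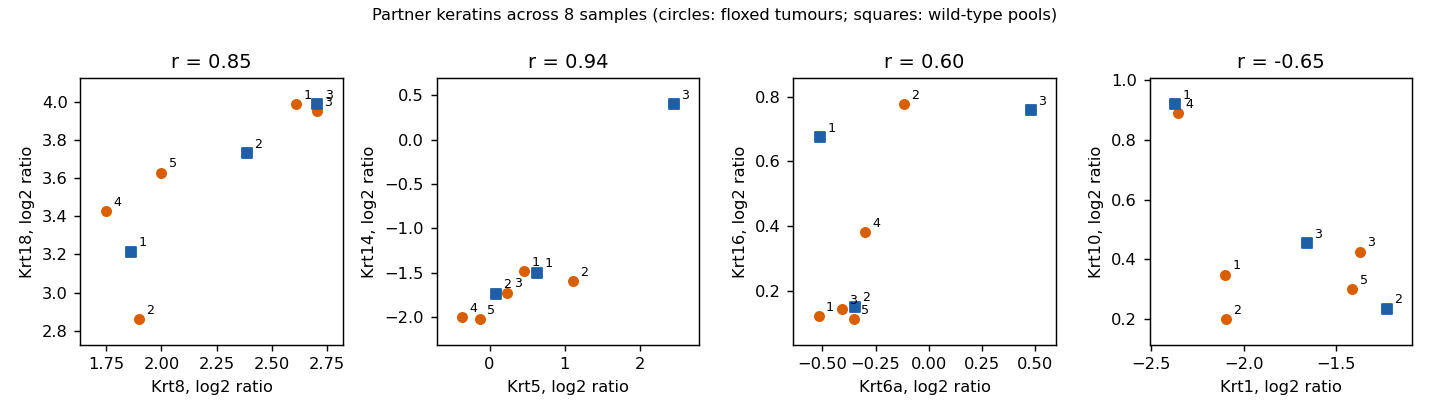
Log2 ratio of the type I keratin against that of its type II partner over 8 samples, for 4 pairs (orange circles: floxed tumours; blue squares: wild-type pools; numbers: replicate). Krt8 with Krt18 and Krt5 with Krt14 rise together, with pool 3 far from the rest for Krt5 and Krt14. Krt1, on its first probe, runs the other way to Krt10.

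Keratin filaments are anchored at desmosomes and hemidesmosomes, whose genes were described beside them. Of 27 desmosome, hemidesmosome and plakin genes, 24 were measured: 13 had a lower and 11 a higher mean in floxed tumours, with a median difference of -0.04, and none passed. The smallest unadjusted p was that of Jup, which encodes plakoglobin, at 0.51 (SE 0.20, limma adjusted p = 0.942). It was followed by Col17a1, a hemidesmosomal collagen, at -0.35 (SE 0.23) and Eppk1, the keratin-binding epiplakin, at -0.32 (SE 0.21). Pool 3 was the highest sample for 11 of the 24.

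Of 16 other intermediate filament genes, 13 were measured, 7 lower and 6 higher in mean, with a median difference of -0.08, and none passed. The smallest unadjusted p-values were those of the neurofilament gene Nefh at -0.37 (SE 0.19), the muscle filament gene Des at 0.37 (SE 0.28) and the lens filament gene Bfsp1 at -0.39 (SE 0.32). Vim, which encodes the mesenchymal filament vimentin, read -2.82, -2.02, -2.98, -2.78 and -2.26 in the floxed tumours and -1.97, -2.84 and -2.08 in the pools. Its groups overlapped, with a difference of -0.27 (SE 0.28).

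The promoters of the keratin genes were searched for TTCNNNGAA, the palindromic core of STAT binding sites, which reads the same on both strands. Promoter sequence from 250 bases before to 50 after the start was taken from RefSeq, GRCm38.p6, for the 28 keratin genes listed there. The motif was present for 3 of these 28 genes (10.7%), which have 29 promoters there, against 2726 of 32851 promoters (8.3%). The keratin share counts genes and the other counts promoters. Below are the 3 matches, with the motif in capitals.
Krt25 promoter, motif from base -56: taggcagaatTTCATAGAAcacccttgaga
Krt31 promoter, motif from base -246: tgacTTCTTTGAAgggctactgcagaactc
Krt42 promoter, motif from base -18: tggcttggacTTCAAGGAAcagaggctcag
Krt25 and Krt31 are among the hair and root sheath keratins seen mainly in floxed tumour 2, and Krt42 was not well above background anywhere. The Krt7 promoter window did not hold these letters. A match is a description of the sequence and not of binding.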

How the data were processed

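Agilent Feature Extraction 9.5.3.1 (protocol GE2-v5_95_Feb07) gave each spot's mean and background intensity, not normalized, and probe coordinates in build mm7, per the file headers. A value table deposited by the authors is in log2, and per the submitters' processing notes RMA was used besides the scanner software. Its columns followed the arrays' log2 tumour over reference ratios (r between 0.991 and 0.996, slopes between 0.984 and 1.26), which gives direction and approximate scale. Its normalization and centring are not given in the sources used here, and its medians were 0.0105, 0.00442, 0.00677, 0.00215 and 0.00287 for floxed tumours 1 to 5 and 0.00469, 0.00314 and 0.0048 for wild-type pools 1 to 3.

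Intensities were corrected with normexp (offset 50) and loess within each array in limma 3.58.1 (R 4.3.3), with control spots at weight 0 and outlier-flagged spots left out. The 245 probes with several spots were averaged. Probes well above background in the tumour channel on at least 3 of 8 arrays (31315) were kept, with the brightest per gene representing it (21564 genes, 21555 of them with a p-value). Names came from the accession for 22951 probes, a current symbol for 6659 and the file for 11563. The second Krt1 probe was named through a synonym. The groups were compared with limma's two-sided moderated test, Benjamini-Hochberg adjusted over all genes, and single keratins with an exact permutation test over 56 splits. The model was tested on simulated data. Pool 1 shared its slide with floxed tumours 4 and 5, pool 2 with floxed tumour 1, and pool 3 with floxed tumours 2 and 3. Floxed tumours carry an ID and no replicate number in the labels, and their numbers here only name them.

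The keratins, the gene lists and the naming rule were chosen with earlier results of these data known. The rule named every measured simple, basal and stress-induced keratin, and of each other keratin class the 3 with the smallest p and the 2 with the widest range. It also named the 3 desmosomal and 3 other filament genes with the smallest p, Vim and Stat3. The 2 brightest markers of each list fell under it too, but Col1a2, Csf1r, Lpl and Atp2a1 are not described here. Further markers were named outside this rule. Genes singled out for being highest in pool 3 or floxed tumour 2 were chosen after their values were seen. Alternatives were other background corrections, normalizations, filters, probe rules, variance models, slide blocks, the tumour channel alone, the deposited log2 table and leaving out single samples, and, added after seeing the data, slide means removed from the paired keratins.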

Additional observations from a re-analysis of the deposited data

Results flagged for a closer look

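In 12 of the 42 keratin genes, 1 floxed tumour stood apart from the other 4 by Dixon's criterion, where chance gives about 2.1 of 42, and in all 12 it was floxed tumour 2. These genes share a sample and are not independent, so the count given by chance does not measure an excess. For the 10 that did not pass the filter, values near background in the other floxed tumours lie close together, which widens the gap. Measured in all samples were Krt17, at 1.28 against 0.49 to 0.67 in the other floxed tumours, and Krt85, at 1.23 against 0.16 to 0.43. The other 10 were mostly not well above background elsewhere. The inner root sheath keratins Krt25, Krt26, Krt27 and Krt28 read 2.73, 0.71, 2.61 and 1.54 in floxed tumour 2. The hair shaft keratins Krt31, Krt33a, Krt33b, Krt34, Krt35 and Krt82 read 1.17, 2.56, 1.21, 2.16, 1.32 and 0.42.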

How the results depend on the processing

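No keratin passed the threshold under any alternative, whereas over all genes the count of 1 was 0 with the scanner software's processed signals, no background correction, the tumour channel alone, the filter on all 8 arrays, no filter, every probe by itself, slide as a fixed block, trended robust variances and the authors' table, and 0 to 2 leaving out 1 sample. The Krt7 difference kept its sign under all 20 tested alternatives (limma adjusted p from 0.223 to 1.00). The cause of each shift below was not tested. Within slides, the median basal difference was 0.19 (pool 2) and -1.84 (pool 3), the stress-induced 0.18 (pool 1) and -0.49 (pool 3), the epidermal 0.21 (pool 1) and Krt23 0.56 (pool 2) and -0.44 (pool 3). As a class median of each gene's mean over samples, the stress-induced ratio to the reference moved from 0.39 to 0.12 with median centring. The epidermal class median moved from -0.37 to -1.06 with processed signals. The mean ratio of Krt23, the only measured gene of its class, moved from 6.12 to 5.79 with median centring. Differences near 0 changed sign with the tumour channel alone for Krt8 (0.0536), Krt18 (0.0102), Krt6b (-0.00599), Krt85 (-0.0620) and Krt9 (-0.0684), with the authors' table for Krt18 (0.0368), Krt36 (0.0189), Krt6b (-0.00377), Krt75 (0.0683) and Krt84 (0.0341), without background correction for Krt75 (0.0428) and Krt9 (-0.0289), with processed signals for Krt75 (0.0695), and with median centring for Krt75 (0.00274) and Krt23 (-0.0133). With processed signals Krt87 was 1.28 and Krt6b 0.55, and with the tumour channel alone Krt84 was -0.60. Leaving out 1 sample gave -0.32 to 0.0897 for the stress-induced median, -0.43 to 0.15 for Krt1, -0.25 to 0.0884 for Krt10, -0.0207 to 0.24 for Krt13, -0.29 to 0.10 for Krt18, -1.65 to 0.0573 for Krt19, -0.0636 to 0.22 for Krt23, -0.11 to 0.00501 for Krt36, -0.41 to 0.0897 for Krt6a, -0.0595 to 0.26 for Krt6b, -0.19 to 0.12 for Krt75, -0.0280 to 0.23 for Krt76, -0.36 to 0.0664 for Krt8, -0.35 to 0.13 for Krt80, -0.24 to 0.12 for Krt84, -0.0779 to 0.19 for Krt85 and -0.0375 to 0.0788 for Krt9. For the pairs r was 0.819 to 0.934 (Krt8 and Krt18), 0.813 to 0.989 (Krt5 and Krt14), 0.425 to 0.819 (Krt6a and Krt16) and -0.837 to -0.516 (Krt1 and Krt10), and 0.719 for Krt8 and Krt18 with the tumour channel alone. With slide means removed, r was 0.962 for Krt8 and Krt18 and 0.926 for Krt5 and Krt14. Neither passed when permuted within slides, where the smallest possible p, 0.0139, lets no single pair pass after adjustment. No paired analysis was possible because the single floxed tumours and the wild-type pools came from different animals. Signal over background limits the 17 keratins that were not measured.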

Other observations

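Markers of further tissues also differed between single tumours, as values with no test. Of 8 skeletal muscle markers, 7 were highest in floxed tumour 5, where the summed level was 36234 against 7317 to 12637 in the other samples, and Acta1, the skeletal muscle actin gene, read -0.13 against -3.36 to -2.12. Of 5 measured adipocyte markers, 4 were highest in floxed tumour 1, among them Fabp4, the fatty acid carrier of fat cells, at 5.34 against 2.69 to 4.26. The keratins of neither tumour stood apart from those of the other floxed tumours by the criterion above. Of 8 measured leukocyte markers, 4 were highest in floxed tumour 2, including Cd68, a macrophage marker, at -1.17 against -2.19 to -1.30.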
